A study of Danio rerio with 12 samples.

Results

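Antigen presentation genes were followed in GFP+ cells that were sorted from transected heads of *mpeg1*:GFP zebrafish larvae. The set was chosen by gene name: *cd74a*, *cd74b* and *mhc2dab* of the MHC class II route, *b2m*, *mhc1zba* and *mhc1uba* of the class I route, and the peptide transporter subunits *tap1* and *tap2a*. Of the 8 names, 6 were found among the 22962 genes of the expression table, and *mhc1uba* and *tap2a* were not found under those names. The study asked which genes change in macrophage-lineage cells early after a wound to the central nervous system. Injured larvae (3 libraries, replicates 1, 2 and 4) had the optic tectum pierced with a fine metal pin at 4 days post fertilisation (dpf), and cells were collected at 2 hours post injury (hpi). Sham larvae (6 libraries, replicates 1 to 6) were anaesthetised, embedded in agarose and released without a wound. All libraries in both groups came from *mpeg1*:GFP larvae, in which the *mpeg1* promoter labels microglia and peripheral macrophages alike, and the heads of about 180 larvae were pooled for each sample. The wild-type strains of the study were AB and WIK, larvae of either sex were used, and pigment formation was blocked with PTU where needed. The other 3 injury libraries, which the study left out for high duplication and low mapping rates, were not used here.

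MHC class I molecules present peptides from inside the cell. The proteasome cuts proteins, the TAP transporter carries the peptides into the endoplasmic reticulum, and a heavy chain paired with beta-2-microglobulin takes them to the surface for CD8+ T cells. MHC class II molecules present material that the cell has taken up. Their chains assemble with the invariant chain, CD74, which lysosomal proteases later cut away, and the loaded complex is shown to CD4+ T cells. In mammals, macrophages and microglia raise both routes after stimulation with interferon gamma. Larval zebrafish at this age rely largely on innate immunity, since mature T cells appear later in development.

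The libraries held 6754699 to 7156275 reads on genes after injury and 6868772 to 8180104 reads in sham. Values are read counts divided by library size (CPM) after scaling with TMM factors, and 3 reads corresponded to 0.440 to 0.466 CPM in injury libraries and 0.349 to 0.423 CPM in sham libraries. Macrophage-lineage markers, *mpeg1.1* and *csf1ra* among them, summed to 9726 to 10700 CPM after injury and 7895 to 9262 CPM in sham. The TMM factors, by which values were divided, were 0.932 to 0.953 in injury libraries and 0.976 to 1.06 in sham libraries. With this scaling, on which the separation depends, all injury libraries stood above all sham libraries in the sum. Taken singly, this held for 1 of the 8 markers, *spi1b*, and the groups overlapped for the others, *mpeg1.1* and *csf1ra* included. Microglia markers summed to 7109 to 10530 CPM after injury and 5802 to 9124 CPM in sham. Neutrophil markers were also abundant, at 7936 to 10360 CPM after injury and 7626 to 10740 CPM in sham, although the cells had been sorted for GFP. That sum mixes markers that differed in direction. Mean CPM after injury and in sham was 3416 and 2036 for *mmp13a*, 3573 and 3930 for *npsn*, and 1754 and 2187 for *mpx*. Of these, only *mmp13a* passed the test described below. Summed markers of other cells were at 82.0 to 114 CPM after injury and 67.6 to 138 CPM in sham for erythrocytes, and at 41.9 to 72.1 CPM after injury and 28.8 to 94.1 CPM in sham for neurons. Keratinocyte and epithelial markers summed to 88.2 to 187 CPM after injury and 71.0 to 174 CPM in sham. Dendritic cell markers summed to 72.9 to 96.6 CPM after injury and 62.1 to 117 CPM in sham, and lymphocyte markers to 14.0 to 24.3 CPM after injury and 11.8 to 32.3 CPM in sham. No marker found was at 0 in every library. In pooled cells, a change in the number of cells of one type cannot be told apart from a change in RNA per cell.

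None of the 5 antigen presentation genes that passed the filter on low counts reached FDR<0.01 at 2 hpi. The log2 fold change (log2FC, injury over sham, from limma on log2(CPM + 0.5)) was above 0 for all 5, between 0.07 and 0.66 with a median of 0.42, while the median over all 16085 genes tested was -0.02 and 47.9% of them lay above 0. The count called was 0 in each direction with limma, with edgeR's quasi-likelihood test and with DESeq2, and 1 of the 5, *cd74a*, had an unadjusted p below 0.05 with limma, as did 17.6% of all genes tested. Over all genes tested, limma called 2.13% higher and 0.628% lower after injury. All injury libraries stood above all sham libraries for 5.73% of the genes tested and below them for 4.61%, and for 0 of the 5 antigen presentation genes in either direction. A log2FC above 0 throughout was not particular to these 5 genes. It was also found for all 8 macrophage-lineage markers (median 0.09) and all 5 microglia markers (median 0.16). Of the 5 neutrophil markers, 2 had a log2FC above 0 and 3 below.

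**Figure D1:**
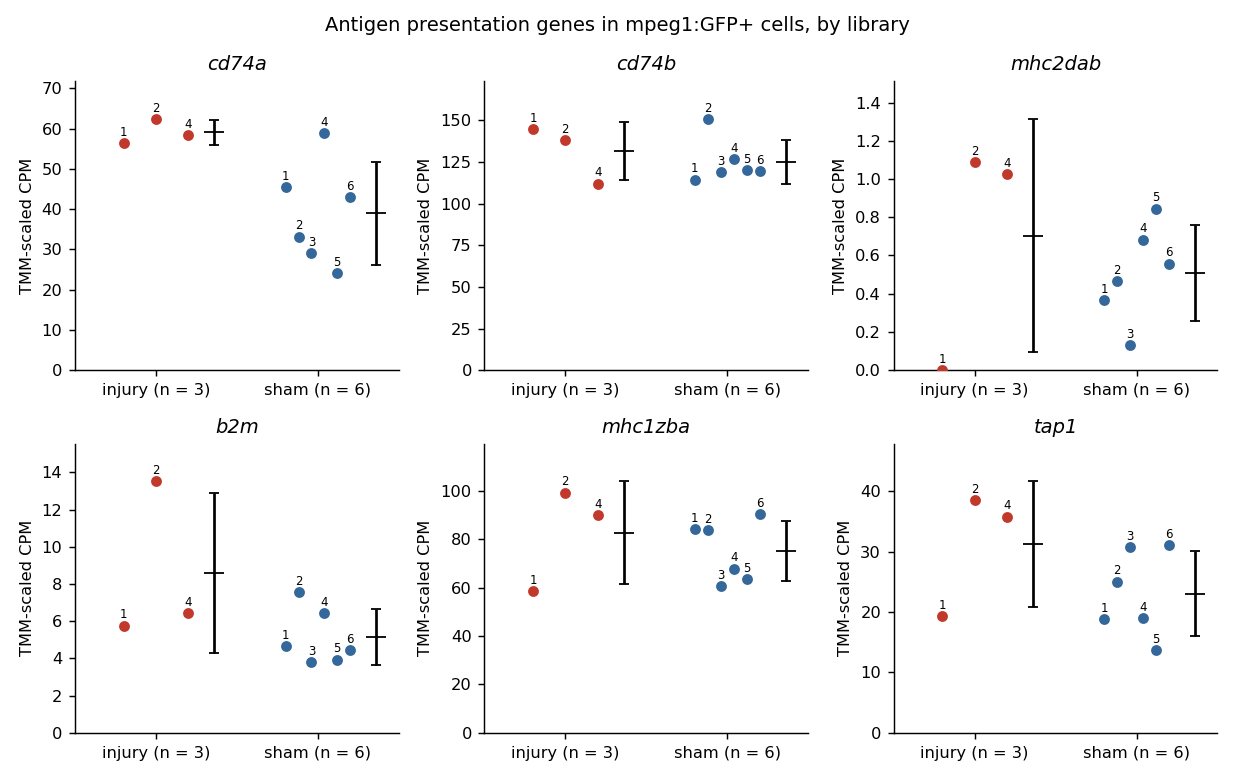
TMM-scaled CPM of the 6 antigen presentation genes found, in each injury library (red, left) and each sham library (blue, right). Numbers are replicate numbers and black bars are mean ± SD. The groups overlap for every gene, and *cd74a* comes nearest to separation, with sham replicate 4 alone among the injury libraries.

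Of the class II route, *cd74a* (ENSDARG00000009087), one of a pair of zebrafish invariant chain genes, had the highest log2FC of the set with limma on all 9 libraries, while that of *b2m* was higher with edgeR (0.73, against 0.595 for *cd74a*) and DESeq2 (0.74, against 0.61). *cd74a* was at 56.3, 62.4 and 58.4 CPM in injury libraries, against a lowest, median and highest value of 24.1, 38.1 and 58.8 CPM in sham libraries. The injury libraries were closely spaced (59.0 ± 3.10 CPM, SD, n = 3), whereas sham libraries were spread widely (38.9 ± 12.7 CPM, SD, n = 6). Sham replicate 4 was the only sham library within the range of the injury libraries. The log2FC was 0.66 (SE 0.23, 95% confidence interval 0.19 to 1.12), with an unadjusted p of 0.00803 and an FDR of 0.10 in limma. The two-sided exact permutation test over the 9 libraries gave p = 0.0714, where 0.0119 is the smallest p that its 84 splits allow. Leaving out 1 library moved the log2FC between 0.53 (FDR 0.186, without sham replicate 5) and 0.79 (FDR 0.0381, without sham replicate 4).

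The second copy, *cd74b* (ENSDARG00000036628), showed no difference past the test. It was at 145, 138 and 112 CPM in injury libraries, against a lowest, median and highest value of 114, 120 and 151 CPM in sham libraries. Injury replicate 4 was below every sham library, and sham replicate 2 was above every injury library. The log2FC was 0.07 (SE 0.14, 95% confidence interval -0.21 to 0.36, FDR 0.848). Whether the 2 copies responded differently was not tested.

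The class II beta chain gene *mhc2dab* (ENSDARG00000079105) was close to the limit of detection. It was at 0, 1.09 and 1.03 CPM in injury libraries, against a lowest, median and highest value of 0.131, 0.511 and 0.845 CPM in sham libraries. No library had more than 7 reads on it, so the gene did not pass the filter and was not tested. Injury replicate 1 had 0 reads, which leaves room for an expected count of up to about 3 reads (0.456 CPM) in that library. An effect of injury on this gene could not be detected.

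Of the class I route, *b2m* (ENSDARG00000053136), which encodes the light chain beta-2-microglobulin, was highest in a single injury library. It was at 5.77, 13.5 and 6.45 CPM in injury libraries, against a lowest, median and highest value of 3.79, 4.56 and 7.56 CPM in sham libraries. Injury replicate 2 stood above all other libraries, whereas injury replicates 1 and 4 lay among the upper sham libraries. The log2FC was 0.63 (SE 0.39, 95% confidence interval -0.18 to 1.44, FDR 0.433), and it was 0.27 without injury replicate 2. Between 28 and 87 reads per library were behind these values.

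The heavy chain gene *mhc1zba* (ENSDARG00000036588), of the zebrafish Z lineage of class I genes, did not differ past the test. It was at 58.6, 99.2 and 89.9 CPM in injury libraries, against a lowest, median and highest value of 60.8, 75.9 and 90.4 CPM in sham libraries. Injury replicate 1 was the lowest of all 9 libraries and injury replicate 2 the highest. The log2FC was 0.12 (SE 0.18, 95% confidence interval -0.26 to 0.49, FDR 0.803), and it turned to -0.03 without injury replicate 2.

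The transporter subunit gene *tap1* (ENSDARG00000079766) showed a like split between the injury libraries. It was at 19.3, 38.5 and 35.8 CPM in injury libraries, against a lowest, median and highest value of 13.7, 22.0 and 31.1 CPM in sham libraries. Injury replicates 2 and 4 stood above every sham library, and injury replicate 1 was below the sham median. The log2FC was 0.42 (SE 0.27, 95% confidence interval -0.15 to 0.99, FDR 0.456), and it was 0.73 with an FDR of 0.199 without injury replicate 1. The exact permutation test gave p between 0.0833 and 0.607 for *b2m*, *tap1*, *cd74b* and *mhc1zba*.

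**Figure D2:**
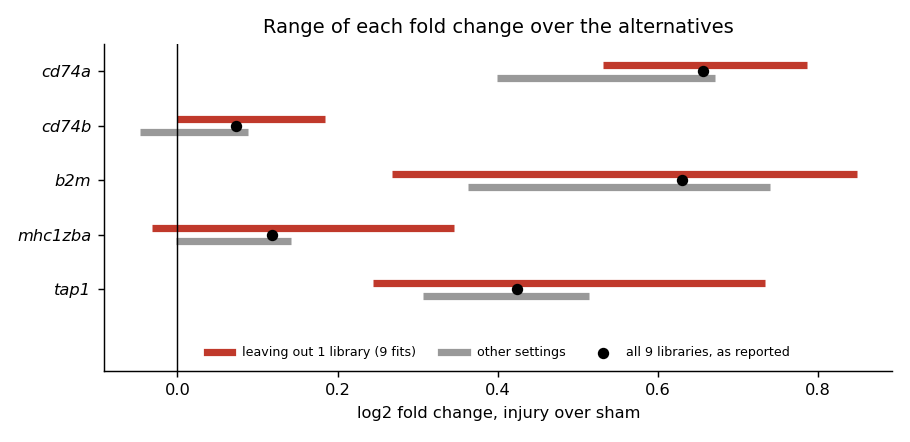
Log2FC (injury over sham) of the 5 antigen presentation genes tested. Black points are the values from all 9 libraries, red bars the range when each library was left out in turn, and grey bars the range over the other scalings, pseudocounts, filters, tools and the replicate block. Ranges stay above 0 for *cd74a*, *b2m* and *tap1*, and reach 0 or cross it for *cd74b* and *mhc1zba*.

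Of the absent names, *tap2a* has an identifier (ENSDARG00000036787) that the table lists under the older symbol *abcb3l1*. This lookup through a current name table was made after the values had been seen, and the gene is not counted in the set. It encodes a partner subunit of *tap1* in the TAP transporter. It was at 0.607, 3.11 and 2.35 CPM in injury libraries, against a lowest, median and highest value of 0.857, 2.06 and 5.36 CPM in sham libraries. The groups overlapped, and injury replicate 1 was the lowest of the 9 libraries. The log2FC was -0.16 (SE 0.56, 95% confidence interval -1.33 to 1.0, FDR 0.923), and it was 0.35 without injury replicate 1. No row was found for the class I heavy chain gene *mhc1uba*.

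Other genes of the pathway were described from 7 lists, which together held 81 identifiers of the table, the 6 genes above included. Of the 74 that were tested, 3 were called higher after injury and 0 lower at FDR<0.01 with limma, and 15 had an unadjusted p below 0.05, against 17.6% of all genes tested. EdgeR called 3 higher and DESeq2 called 4, *lgmn* being the added one, with 0 lower in both. All injury libraries stood above all sham libraries for 8 of the 74 and below them for 1, where the shares over all genes tested were 5.73% and 4.61%. The log2FC was above 0 for 50 and below 0 for 24, with a median of 0.10. The 3 called, *ctss2.1*, *cd63* and *cd40*, lie outside the core set, and their share can be read against the 2.13% of all genes tested that were called higher. Without injury replicate 2 or injury replicate 4, only 1 list gene was called, *ctss2.1*.

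**Figure D3:**
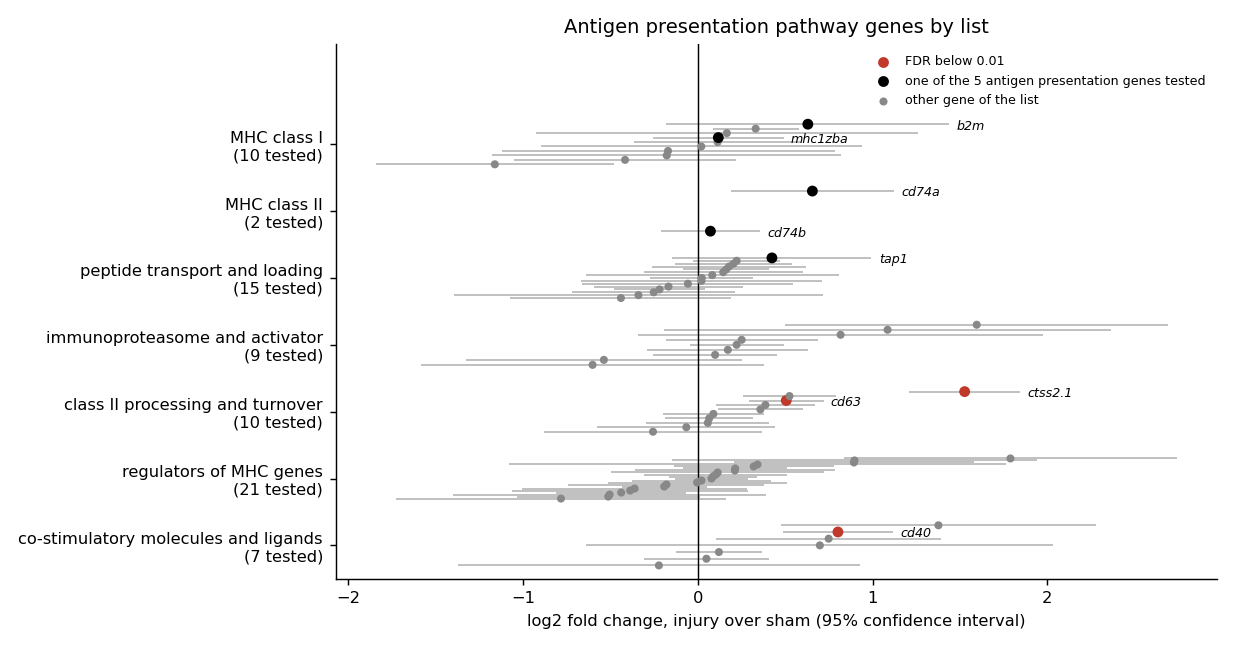
Log2FC (injury over sham) with 95% confidence interval for the 74 genes tested in 7 lists of antigen presentation genes, ordered by log2FC within each list. Red points passed FDR<0.01, black points are the 5 genes of the core set that were tested, and grey points are the remaining genes; red points appear only for *ctss2.1*, *cd63* and *cd40*.

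The list of class II processing and turnover held 2 of the 3 called genes. Of its 10 genes tested, 2 rose, 0 fell and 8 did not pass the test, with a median log2FC of 0.22. Its CPM summed to 5785 to 6171 after injury and 3870 to 4866 in sham. With TMM scaling, macrophage-lineage markers summed higher in every injury library as well, though singly only *spi1b* of those 8 did so. The part of cell composition in the sum of this list was not tested. *ctss2.1* (ENSDARG00000074656) encodes a cathepsin S, the protease that in mammals trims the invariant chain. It was at 576, 704 and 512 CPM in injury libraries, against a lowest, median and highest value of 159, 204 and 293 CPM in sham libraries. All injury libraries stood well above all sham libraries, and the log2FC was 1.53 (SE 0.15, FDR 6.05e-07).

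*ctss2.1* stayed past FDR<0.01 when each library was left out in turn. The similarly named *ctss2.2* was at 610, 766 and 523 CPM in injury libraries, against a lowest, median and highest value of 506, 597 and 674 CPM in sham libraries, with a log2FC of 0.07 (SE 0.12, FDR 0.847). How reads shared between similar copies were assigned was not tested, so the split between the 2 genes is uncertain.

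*cd63*, which encodes a tetraspanin of late endosomes and of the compartments where class II is loaded, also rose. It was at 828.6, 849 and 791 CPM in injury libraries, against a lowest, median and highest value of 517, 589 and 648 CPM in sham libraries. The groups did not overlap, and the log2FC was 0.51 (SE 0.10, FDR 0.00347). It passed FDR<0.01 in 5 of the 9 fits that left out a library.

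The 2 genes of this list with the highest CPM did not pass FDR<0.01 with limma on all 9 libraries. *lgmn*, which encodes the lysosomal protease legumain, was at 1931, 1881 and 2094 CPM in injury libraries, against a lowest, median and highest value of 1086, 1398 and 1764 CPM in sham libraries. Its groups did not overlap, and its log2FC was 0.52 (SE 0.13, FDR 0.0158). It passed with DESeq2 (FDR 0.00805) but not with edgeR (FDR 0.0269). Of the 9 fits that left out a library, it passed in 1, without sham replicate 6 (FDR 0.00317). The highest FDR among them was 0.0978, without injury replicate 4. *ctsla*, a cathepsin L gene, had a log2FC of 0.36 (SE 0.12, FDR 0.0798), with groups that overlapped.

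**Figure D4:**
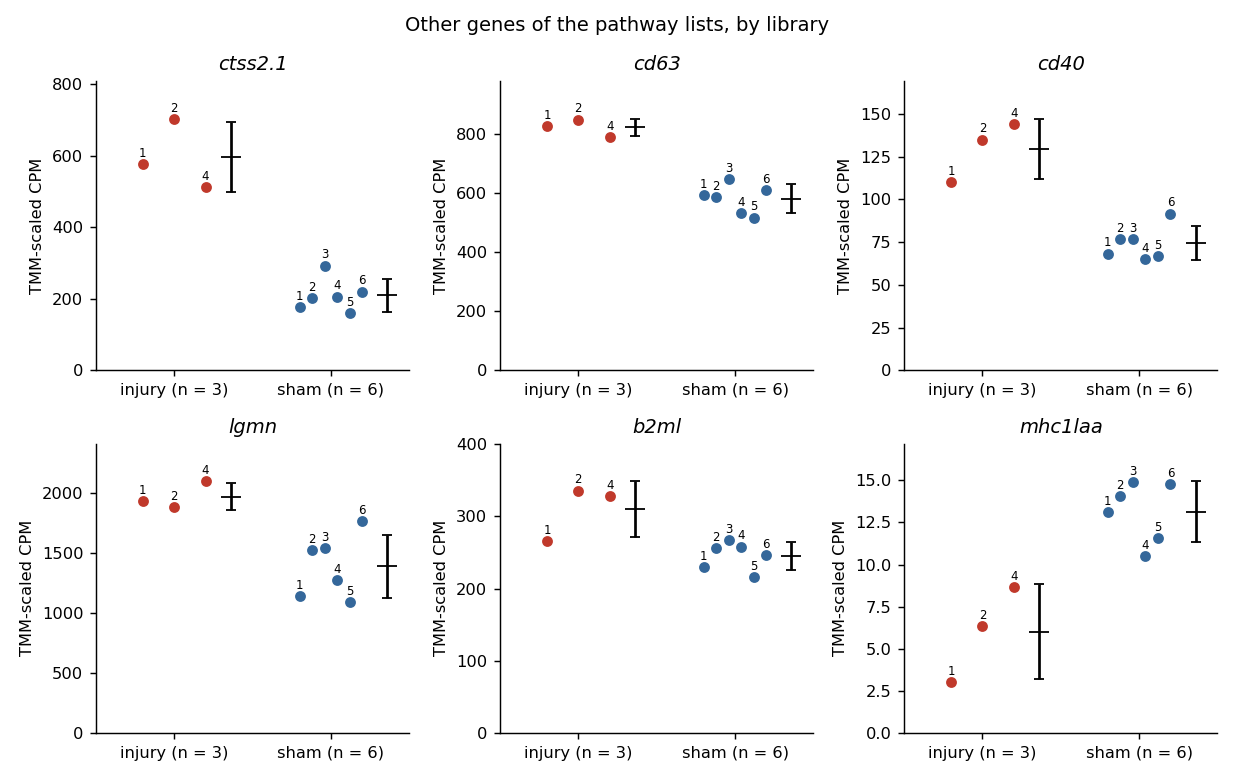
TMM-scaled CPM of 6 further genes of the lists in each injury library (red, left) and each sham library (blue, right), with replicate numbers and mean ± SD (black). *ctss2.1*, *cd63*, *cd40* and *lgmn* are higher in every injury library than in any sham library, *mhc1laa* is lower in every injury library, and *b2ml* overlaps by injury replicate 1.

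The third called gene, *cd40*, encodes a receptor through which T cells stimulate antigen-presenting cells. It was at 110, 135 and 144 CPM in injury libraries, against a lowest, median and highest value of 65.3, 72.5 and 91.8 CPM in sham libraries. The groups did not overlap, and the log2FC was 0.80 (SE 0.15, FDR 0.00165). Of the 7 co-stimulatory genes tested, 1 rose, 0 fell and 6 did not pass, with a median log2FC of 0.70. *cd83*, a maturation marker of dendritic cells in mammals, was chosen after its values were seen and had a log2FC of 1.377 (SE 0.43, FDR 0.0664). It was also 1 of the 5 dendritic cell markers, of which 1 had a log2FC above 0 and 4 below. Their median was -0.10, and 0 were called in either direction. *lgals9l1*, which had the highest CPM of the co-stimulatory list, had a log2FC of 0.12 (SE 0.12, FDR 0.671).

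Of the 10 class I genes tested, which include *b2m* and *mhc1zba*, 0 were called in either direction, 6 had a log2FC above 0 and 4 below, and the median was 0.07. *b2ml*, a second beta-2-microglobulin gene, was at 266, 336 and 328 CPM in injury libraries, against a lowest, median and highest value of 216, 251 and 267 CPM in sham libraries. Injury replicates 2 and 4 were above every sham library and injury replicate 1 was just below the highest, with a log2FC of 0.33 (SE 0.12, FDR 0.119). *mhc1laa*, a class I gene of the L lineage that was chosen after its values were seen, was the only gene tested in the 7 lists whose injury libraries all lay below all sham libraries, as they did for 4.61% of all genes tested.

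*mhc1laa* was at 3.04, 6.37 and 8.65 CPM in injury libraries, against a lowest, median and highest value of 10.5, 13.6 and 14.9 CPM in sham libraries. Its log2FC was -1.16 (SE 0.33, FDR 0.0378), short of FDR<0.01, and it was -0.77 with an FDR of 0.236 without injury replicate 1. Another gene of that lineage, *mhc1lia*, had a log2FC of -0.42 (SE 0.31, FDR 0.531), with groups that overlapped.

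Peptide supply and loading changed in no gene past the test. Of 15 genes of peptide transport and loading, *tap1* included, 0 were called, 9 had a log2FC above 0, and the median was 0.02. Those with the highest CPM, the translocon gene *sec61a1* and the chaperone gene *canx*, had log2FC of 0.22 (SE 0.12, FDR 0.350) and 0.16 (SE 0.12, FDR 0.527). Of 9 genes of the immunoproteasome and its activators, 0 were called, 7 had a log2FC above 0, and the median was 0.22. The activator genes *psme4b* and *psme1* had log2FC of 0.22 (SE 0.13, FDR 0.400) and 0.10 (SE 0.17, FDR 0.831).

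Among the immunoproteasome subunits, 3 were looked at after their values were seen. *psmb9a* was at 4.40, 5.59 and 5.87 CPM in injury libraries, against a lowest, median and highest value of 0.282, 1.45 and 3.96 CPM in sham libraries. Its groups did not overlap, but its log2FC of 1.60 had an SE of 0.53 and an FDR of 0.0849, with as few as 2 reads in a library. *psmb12* had a log2FC of 1.09 (SE 0.62, FDR 0.386) and *psmb8a* one of -0.60 (SE 0.47, FDR 0.568), so the low-count subunits differed in sign without any of them passing the test.

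Of 21 regulators of MHC genes, 0 were called in either direction, 12 had a log2FC above 0, and the median was 0.08. Those with the highest CPM were the kinase gene *jak1*, with a log2FC of 0.08 (SE 0.10, FDR 0.759), and the transcription factor gene *irf1b*, with -0.44 (SE 0.18, FDR 0.187). The similarly named *irf1a*, looked at after its values were seen, had a log2FC of 0.90 (SE 0.50, FDR 0.379). Its injury libraries all lay above all sham libraries, with 6 to 27 reads per library. *crfb17*, listed as *ifngr1* in the current name table, and *ciita*, the class II transactivator gene, were chosen after their values were seen. *crfb17* was at 17.0, 16.3 and 16.6 CPM in injury libraries, against a lowest, median and highest value of 1.47, 5.40 and 10.2 CPM in sham libraries. Its groups did not overlap, and its log2FC of 1.79 (SE 0.46) had an FDR of 0.0210. Of the 9 fits that left out a library, 1 passed FDR<0.01 (0.00618, without sham replicate 3). The highest FDR among them was 0.0852, without injury replicate 1. Other receptor genes of this list differed less. The gene named *ifngr1* in the table, now *ifngr1l*, was at 165, 156 and 154 CPM in injury libraries and 132 to 160 CPM in sham libraries. Its log2FC was 0.09 (SE 0.12, FDR 0.780). *crfb6*, now named *ifngr2*, had a log2FC of 0.02 (SE 0.19, FDR 0.971). *ciita* had a log2FC of -0.78 (SE 0.46, FDR 0.400), which was -0.20 without injury replicate 2.

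Many MHC genes of the table stand under clone names. A lookup of identifiers whose current symbol is an MHC class I or II, TAP2 or beta-2-microglobulin gene, made after the values had been seen, gave 23 identifiers, of which 12 carried another name in the table. Of the 18 tested, 0 were called in either direction with limma and 3 had an unadjusted p below 0.05, against 17.6% of all genes tested. The log2FC was above 0 for 7 and below 0 for 11, with a median of -0.12. This group held *b2m* and *mhc1zba*, both above 0, but not *cd74a*, *cd74b* or *tap1*. Its genes did not all have the sign shared by the 5 genes of the core set. For the 5 class II chain genes tested, it was above 0 for 1 and below 0 for 4.

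The class II chain gene with the most reads was the one now named *mhc2d4b* (*wu:fd58b11* in the table). It was at 188, 190 and 207 CPM in injury libraries, against a lowest, median and highest value of 200, 235 and 279 CPM in sham libraries. Injury replicates 1 and 2 lay below every sham library, with a log2FC of -0.27 (SE 0.13, 95% confidence interval -0.54 to -0.01, FDR 0.255). The gene now named *mhc2daa* (*si:busm1-266f07.2*), a class II alpha chain, was at 40.9, 46.6 and 21.1 CPM in injury libraries, against a lowest, median and highest value of 29.9, 36.8 and 42.2 CPM in sham libraries, with a log2FC of -0.09 (SE 0.22, FDR 0.893). The TAP gene now named *tap2t* (*si:dkey-57h18.2*) had -0.30 (SE 0.18, FDR 0.415).

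The genes of the core set were also compared with each other and with interferon-responsive genes over the 9 libraries. Of 13 interferon-responsive genes tested, 0 were called in either direction. The log2FC was above 0 for 8 of them and below 0 for 5, with a median of 0.20. The CPM of the 15 genes found for this list, *b2m*, *psmb8a* and the untested ones included, summed to 212 to 471 after injury and 199 to 366 in sham. The antiviral gene *mxc*, looked at after its values were seen, was at 6.83, 136 and 37.4 CPM in injury libraries, against a lowest, median and highest value of 5.27, 30.1 and 85.0 CPM in sham libraries. *gbp1* and *stat2*, which had the highest CPM of the list, had log2FC of 0.34 (SE 0.24, FDR 0.502) and 0.36 (SE 0.20, FDR 0.373). For 1 of the 13, *ifih1*, all injury libraries lay below all sham libraries, as for 4.61% of all genes tested. Its log2FC was -0.69 (SE 0.27, FDR 0.155). The spread of *mxc* within both groups was larger than the difference between them.

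The mean log2 level of 11 of the interferon-responsive genes tested, leaving out *b2m* and *psmb8a*, was 3.67 to 4.67 in injury libraries and 3.82 to 4.43 in sham libraries. Its correlation with *mhc1zba* was r = 0.73 (exact permutation p = 0.0285, adjusted p = 0.231) and rho = 0.83 (exact permutation p = 0.00827, adjusted p = 0.124) over 9 libraries. The 2 libraries farthest from the median were injury replicates 1 and 2, so without them only injury replicate 4 remained beside the sham libraries. There r was 0.45 without those 2 libraries and 0.36 within sham. With *tap1*, r was 0.58 (exact permutation p = 0.106, adjusted p = 0.231) and rho 0.72 (exact permutation p = 0.0369, adjusted p = 0.184), and r was 0.35 without those libraries. None of the 15 relations computed, 5 with this mean and 10 between genes of the core set, passed an adjusted p of 0.05, and r between genes of the core set ran from -0.07 to 0.62.

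As a description over 9 libraries, with no test and among the 11404 genes that averaged 5 CPM or more, the gene with the most similar pattern was named for each. It was *si:ch211-209f23.6* for *cd74a* (r = 0.93), *si:dkey-30j19.3* for *cd74b* (r = 0.90), *ccdc9* for *b2m* (r = 0.94), *taf5* for *mhc1zba* (r = 0.93) and *gltpa* for *tap1* (r = 0.96). Each r was picked as the highest over all genes compared, which by itself favours a high value. How high it would be for unrelated genes was not tested. These genes differ from one another, and the libraries shared depth and scaling with the genes compared.

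Most markers of the sorted cells did not pass the test, and 1 was called higher in each of the macrophage-lineage, microglia and neutrophil lists. The macrophage transcription factor gene *spi1b* was at 2108, 1589 and 1966 CPM in injury libraries, against a lowest, median and highest value of 1144, 1304 and 1540 CPM in sham libraries. It rose with a log2FC of 0.50 (SE 0.11, FDR 0.00751), but passed FDR<0.01 in only 3 of the 9 fits that left out a library. *slc7a7*, a microglia marker, rose with a log2FC of 0.85 (SE 0.11, FDR 1.55e-05), and *mmp13a*, listed among the neutrophil markers, with 0.77 (SE 0.15, FDR 0.00218). *slc7a7* passed FDR<0.01 in all 9 fits that left out a library, and *mmp13a* in 7 of them. The groups overlapped for *mmp13a*, with injury replicate 4 (2822 CPM) below sham replicate 6 (3006 CPM). The neutrophil gene *mpx* had a log2FC of -0.33 (SE 0.12, FDR 0.125). The median log2FC was 0.09 for the 8 macrophage-lineage markers, 0.16 for the 5 microglia markers and -0.05 for the 5 neutrophil markers, of which 3 had a log2FC below 0. *mpeg1.1* had a log2FC of 0.075 (SE 0.10, FDR 0.756). The part of cell composition in the values of *cd74a*, *ctss2.1*, *cd63* and *cd40* was not tested.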

How the data were processed

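The study amplified RNA of sorted cells as cDNA with a NuGEN Ovation kit. Per the submitters' processing notes, reads were processed with cutadapt 1.9, STAR 2.5.2b, featureCounts 1.5.1 and edgeR 3.20.1. The alignment was to GRCz10. The deposited signal values are CPM scaled by the authors with TMM. Deposited fold changes, p-values, FDR and group means were not used. Read counts were recovered by dividing each library's values by its smallest step. By the tolerance used, 100% of values were whole. It was 0.05, and wider in proportion to the count for the highest counts. No per-sample column was left unmapped.

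Genes passing filterByExpr (minimum count 10) were fitted with limma 3.58.1 on log2(CPM + 0.5), condition only, with Benjamini-Hochberg adjustment over 16085 genes and FDR<0.01. EdgeR 4.0.16 on recovered reads called 326 genes higher and 65 lower, and DESeq2 1.42.0 was an alternative. R 4.3.3 and Python 3.11.15 were used, and the fit was tested on simulated data. The labels do not say that replicates came from separate clutches, so p-values measure the spread between these libraries. Counting is not stated to use strand, and overlapping genes cannot be told apart.

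Members and lists were chosen with earlier results of these data known. Named were all members found, list genes with FDR<0.01 and the most similar gene for each member. The 2 genes with the highest CPM were named for each pathway list and for the interferon-responsive genes. Of the marker lists, this was done for macrophage-lineage and neutrophil markers only. Other genes named were chosen after their values were seen. The list names, *march1* and *march8*, stand as dates in the table and were not matched. Levels were not compared between genes, since transcript lengths were not used.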

Additional observations from a re-analysis of the deposited data

Results flagged for a closer look

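Among the 6 sham libraries, a single library stood apart from the others for 6 of the 39 genes checked. The rule marks about 1 in 20 groups of independent, normally distributed values. CPM values need not be of that kind, and some genes were chosen after their values were seen. Whether 6 of 39 is more than the share over all genes was not tested. *cd74b* was at 151 CPM in sham replicate 2, while the other sham libraries lay between 114 and 127 CPM. *psmb9a* was at 3.96 CPM in sham replicate 4, with the others between 0.282 and 1.57 CPM. *psmb12* was at 1.63 CPM in sham replicate 2, with the others between 0.139 and 0.683 CPM. *lgals9l1* was at 408 CPM in sham replicate 6, with the others between 298 and 336 CPM. *mmp13a* was at 3006 CPM in sham replicate 6, with the others between 1570 and 2074 CPM. *abcb3l1*, the gene now named *tap2a*, was at 5.36 CPM in sham replicate 3, with the others between 0.857 and 2.39 CPM.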

How the results depend on the processing

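The genes of the core set stayed at 0 called in each direction under every alternative run, and *cd74a*, *b2m* and *tap1* kept a log2FC above 0 in all of them. With scaling by library size and no TMM factor, which moved the median log2FC of all genes by -0.11 to -0.13, *mhc1zba* was at -0.0013, *cd74b* at -0.0467, *ctss2.2* at -0.0542, *psme1* at -0.02 and *jak1* at -0.0412. When each library was left out in turn, *mhc1zba* ran from -0.0317 to 0.3455, *ctss2.2* from -0.0809 to 0.1945, *mxc* from -0.5362 to 1.5747 and *psme1* from -0.1284 to 0.3337, each lowest without injury replicate 2. *mhc2daa* (*si:busm1-266f07.2*) ran from -0.3038 to 0.2578, above 0 without injury replicate 4. *abcb3l1* ran from -0.5053 to 0.3462, above 0 without sham replicate 3 or injury replicate 1, and was at 0.3698 with the replicate block. The cause of these turns was not tested. *cd63* and *cd40* were no longer past the threshold in 5 and 2 of their 20 alternatives, and *ctss2.1* passed in all. Of the called markers, *spi1b* and *mmp13a* were no longer past it in 8 and 3 of their 20 alternatives, and *slc7a7* passed in all.

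Of all genes tested, 342 were higher after injury and 101 lower. At FDR<0.05 these were 586 and 326, and leaving out 1 library gave 182 to 381 and 41 to 113. The lower count was 61 with no filter, 194 with library size alone, 65 with edgeR and 235 with DESeq2. List genes called higher were 5 and lower 1 at FDR<0.05, and leaving out 1 library gave 1 to 4 higher. The replicate block gave 484 genes higher and 148 lower over all genes, and 6 list genes higher, where *lgmn* (FDR 0.000103), *crfb17* (FDR 0.00118) and *ctsl.1* (FDR 0.00549) joined *ctss2.1*, *cd63* and *cd40*. Sham replicates 3, 5 and 6 had no injury library of their number, so log2FC values with the block rest on replicates 1, 2 and 4 alone. With the block, *cd74a* was at 0.40 (FDR 0.305), below *tap1* at 0.51. In its RT-qPCR check, the paper compared injured with sham cDNA samples made on the same day, some of them also used for sequencing. How replicate numbers relate to those days is not stated, so whether they pair the libraries is not settled. They were not used as pairs in the main fit. Deviations of same-numbered libraries correlated at 0.131, 0.109 and 0.024. Injury replicates 1 and 2, but not 4, correlated best with the sham library of their own number. The promoter motif search was not run, since promoter windows were not used here. Depth limits *mhc2dab* and the low-count subunit genes, and 3 injury libraries limit the precision of every fold change. Similar copies such as *b2m* and *b2ml* can share reads.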
